A study of Ovis aries with 42 samples.

Results

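The season contrast of the hypothalamus sets the mean of the cycling ewes, with the luteal and the follicular phase weighted equally, against ewes in anestrus. Its members are the 21 hypothalamus libraries of the 42 in the study: 7 luteal (libraries 1 to 7), 7 follicular (8 to 14) and 7 anestrous (15 to 21), taken from the labelled tissue and phase and not from any measured value. All 3 groups were adult females of Rasa Aragonesa, a Spanish sheep breed that reproduces seasonally. The luteal ewes were at the stage when the corpus luteum secretes progesterone, the follicular ewes at the stage when follicles mature before ovulation, and the anestrous ewes in the season without cycles. The labels name no treatment, age in years, day length or sampling date. Whether each of the 7 libraries in a group came from its own ewe is not stated. The p-values therefore measure only the spread between these libraries, which may be technical. The other 21 libraries are from the pars tuberalis, the part of the pituitary around the stalk below the hypothalamus.

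The hypothalamus holds the neurons that release gonadotrophin-releasing hormone, which drives the ovary through the pituitary. In sheep the length of the night, read through melatonin in the pars tuberalis, alters thyroid hormone supply in the hypothalamus and through it the drive on those neurons, and in the anestrous season low levels of oestradiol are enough to hold that drive down. The deposited table identifies features only by Ensembl sheep gene ID, and no table used here pairs these IDs with gene names. The genes known for these roles, and the markers of neurons, glia or pituitary cells, could therefore not be looked up, and no gene is named below. The tissue label was checked only through the libraries themselves: the first principal component, with 48.0% of the variance of log2 CPM (counts per library size after TMM scaling), separated all 21 hypothalamus from all 21 pars tuberalis libraries. In bulk tissue, fewer cells of a type and less RNA per cell cannot be told apart.

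The hypothalamus libraries held 18511124 to 37726207 counts, and a count of 3 corresponded to 0.0589 to 0.235 CPM, which sets the lowest level that could be told from 0 (counting error only). Library 15, from anestrus, was the deepest of its group with 33586399 counts, and its 10 largest features took 14.8% of its counts, the lowest share of the 21 libraries. It held the highest value of all 21 libraries for 14.7% of the tested features and the lowest value for 16.6%. Summed levels of the 104 features that were more than 32-fold higher in the pars tuberalis reached 841 CPM in follicular library 11 and 967 CPM in anestrous library 17, against medians of 43.1 and 57.5 CPM in their groups, and were at least 4683 CPM in every pars tuberalis library. The counts of the season contrast and the features named are given with and without library 15.

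With all 21 libraries, no feature passed the test between cycling and anestrous hypothalamus. Of 16350 features tested by edgeR's quasi-likelihood test with Benjamini-Hochberg adjustment, 0 were called (0%), and the lowest adjusted p was 0.116. At an unadjusted p under 0.05 there were 1516 features (9.27% of those tested), of which 562 (3.44%) were higher and 954 (5.83%) lower in cycling libraries. A count of 818 would be 5% of the features tested. The balance of directions depended on the fit: with 5 surrogate variables 1158 features were higher and 975 lower at an unadjusted p under 0.05. DESeq2 called 64 features (0.391%), 4 higher (0.0245%) and 60 lower (0.367%) in cycling libraries. Limma-voom with sample weights called 266 (1.63%), 68 higher (0.416%) and 198 lower (1.21%). The 3 tools therefore differed in the count called, and in each of the latter lists most features were lower in cycling libraries.

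The size of the seasonal differences was bounded for most features. The median size of the log2 fold change was 0.19 and its median standard error 0.22. The 95% interval of the difference lay within 2-fold in both directions for 12018 features (73.5%). With the features split by mean level into 3 sets of 5450, this share was 43.9% in the least abundant, 85.2% in the middle and 91.5% in the most abundant set, so a seasonal difference above 2-fold was left possible mainly among low features. The interval lay wholly beyond 2-fold for 42 features. Without library 15 it lay within 2-fold for 68.8% of features and wholly beyond for 62. In the pars tuberalis, where the libraries of a group varied less (biological coefficient of variation 31.9%, against 43.3% in the hypothalamus), the interval lay within 2-fold for 84.3% of 16301 features.

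ENSOARG00000016596 had the lowest p of all features and was lower in cycling libraries. The luteal libraries ran from 12.4 to 18.6 CPM with a median of 15.5, the follicular libraries from 12.9 to 20.2 with a median of 17.5, and the anestrous libraries from 21.1 to 26.5 with a median of 23.98. All 14 cycling libraries were below all 7 anestrous libraries, library 15 included. It was the only feature of the 16350 whose cycling and anestrous libraries did not overlap (0.00612%). The difference was 1.46-fold, a log2 fold change of -0.55 ± 0.099 (SE), with an edgeR adjusted p of 0.116. Without library 15 it was -0.56 ± 0.102, with an edgeR adjusted p of 0.016. DESeq2 gave an adjusted p of 0.00038 and limma-voom 0.0118. The luteal and follicular differences from anestrus, which share the anestrous libraries, were -0.61 and -0.48 on the log2 scale. In the pars tuberalis its log2 difference was 0.10 ± 0.224, and the season difference differed between the tissues by -0.65 ± 0.253 (edgeR adjusted p = 0.695). The pars tuberalis medians were 15.6 CPM in luteal, 13.1 in follicular and 16.3 in anestrous libraries, so by median both cycle phases were lower there too. Luteal libraries 22, 23 and 24 stood at 26.9, 26.6 and 50.02 CPM, above every anestrous pars tuberalis library (at most 17.5).

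The feature next in p, ENSOARG00000006630, owed its difference to 1 library. Anestrous library 19 stood at 1954 CPM from 43428 counts, and the other 20 hypothalamus libraries lay between 11.03 and 32.8 CPM, with medians of 15.6 in luteal, 14.05 in follicular and 16.6 in anestrous libraries. The anestrous and cycling libraries overlapped apart from libraries 17, 19 and 21, which were above all cycling ones. The log2 fold change was -4.32 ± 0.797, with an edgeR adjusted p of 0.116, and it was -0.33 ± 0.164 without library 19 (edgeR adjusted p = 0.632). Without library 15 it was -4.53 (edgeR adjusted p = 0.016), and without library 21 also -4.53 (edgeR adjusted p = 0.0398). DESeq2 gave -0.30, because it replaced the count of library 19 with 338 before its fit. It replaced a count in 43 of the tested features.

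The features with the lowest p among those higher in cycling libraries were ENSOARG00000007825 and ENSOARG00000008414. ENSOARG00000007825 ran from 9.13 to 15.3 CPM in luteal libraries (median 12.4), from 10.96 to 13.8 in follicular libraries (median 12.3) and from 5.999 to 11.5 in anestrous libraries (median 7.96). The highest anestrous value was that of library 15, within the cycling range, and the other 6 anestrous libraries reached 9.44, above only the lowest luteal library. The difference was 1.51-fold, a log2 fold change of 0.59 ± 0.137 with an edgeR adjusted p of 0.162. ENSOARG00000008414 ran from 92.1 to 167 CPM in luteal libraries (median 132), from 123 to 219 in follicular libraries (median 140) and from 59.6 to 140 in anestrous libraries (median 82.5). Library 15 was again the highest anestrous library, and luteal library 3, at 92.1 CPM, lay among the anestrous ones. The difference was 1.58-fold, a log2 fold change of 0.66 ± 0.160 with an edgeR adjusted p of 0.175. DESeq2 and limma-voom gave adjusted p-values of 0.0107 and 0.0438 for ENSOARG00000007825 and of 0.0196 and 0.0173 for ENSOARG00000008414. Without library 15 the log2 fold changes were 0.70 ± 0.133 and 0.82 ± 0.153, with edgeR adjusted p-values of 0.017 and 0.016.

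**Figure D1:**
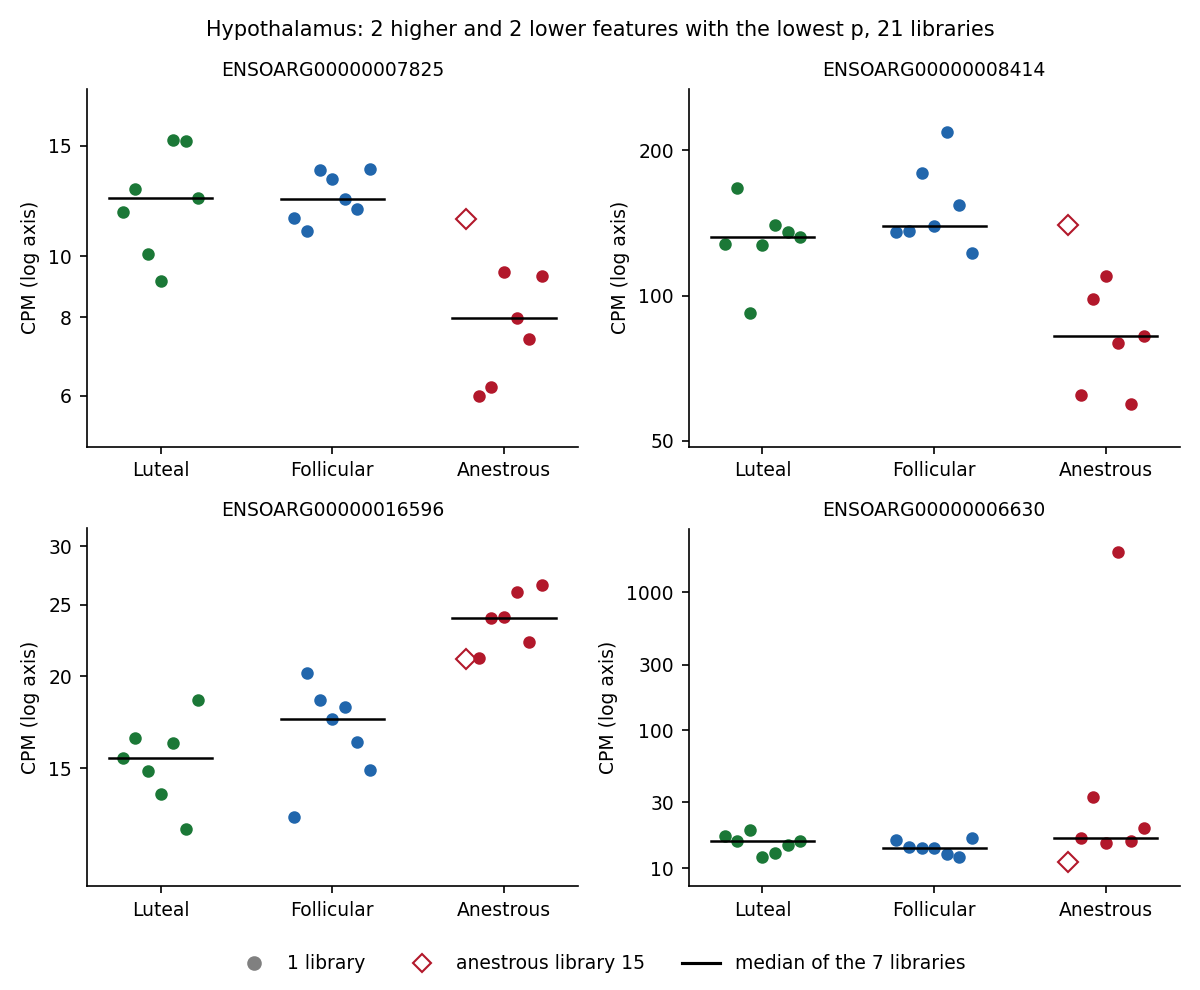
Levels of the 2 higher and the 2 lower features with the lowest p in the season contrast, in CPM on log axes, for 7 luteal, 7 follicular and 7 anestrous hypothalamus libraries. Points are libraries, the open diamond is anestrous library 15 and lines are group medians. For ENSOARG00000016596 every anestrous library lies above every cycling one, and for ENSOARG00000006630 library 19 stands alone at 1954 CPM.

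With all 21 libraries the large differences ran mostly one way, and few libraries held their highest values. Among features at an unadjusted p under 0.05, 71 were more than 4-fold lower in cycling libraries and 11 more than 4-fold higher. Without library 15 the counts were 85 and 35. In this contrast a high library in 1 cycle phase moves only part of the cycling mean on the log2 scale, while a high anestrous library counts in full. The directions are therefore not on a like footing at a 4-fold cut. The highest of the 21 values lay in anestrous library 17 for 38 of the 71, in library 19 for 25, in library 20 for 5, in library 15 for 2 and in library 18 for 1. No luteal or follicular library, and neither anestrous library 16 nor 21, held the highest value for any of them. These values chose the 71 features and are a description. The median of the 71 features' deviations from their own median over libraries was 4.09 on the log2 scale in library 17 and 3.69 in library 19, against 1.81 in library 16 and 0.00 in libraries 18 and 21. Most were low features: 43 of the 71 had a median under 1 CPM over the 21 libraries, and in 16 the highest library was more than 10 times the next. An unadjusted p under 0.05 was kept by 53 of the 71 without library 17 and by 52 without library 19. Library 17 also had the highest summed level of the features far higher in the pars tuberalis, 967 CPM. That sum was 101 CPM in library 19. In follicular library 11 it was 841 CPM, with a median deviation of 0.22 over the 71 features. Of those 104 features 43 were tested in the hypothalamus, and 2 of them (4.65%) were among the 71, against 0.434% of all tested features. More widely, 44 of the 71 (62.0%) had a higher mean in the pars tuberalis than in the hypothalamus, against 47.0% of all tested features. These shares were not matched for level, and the part of tissue makeup in these differences was not tested.

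**Figure D2:**
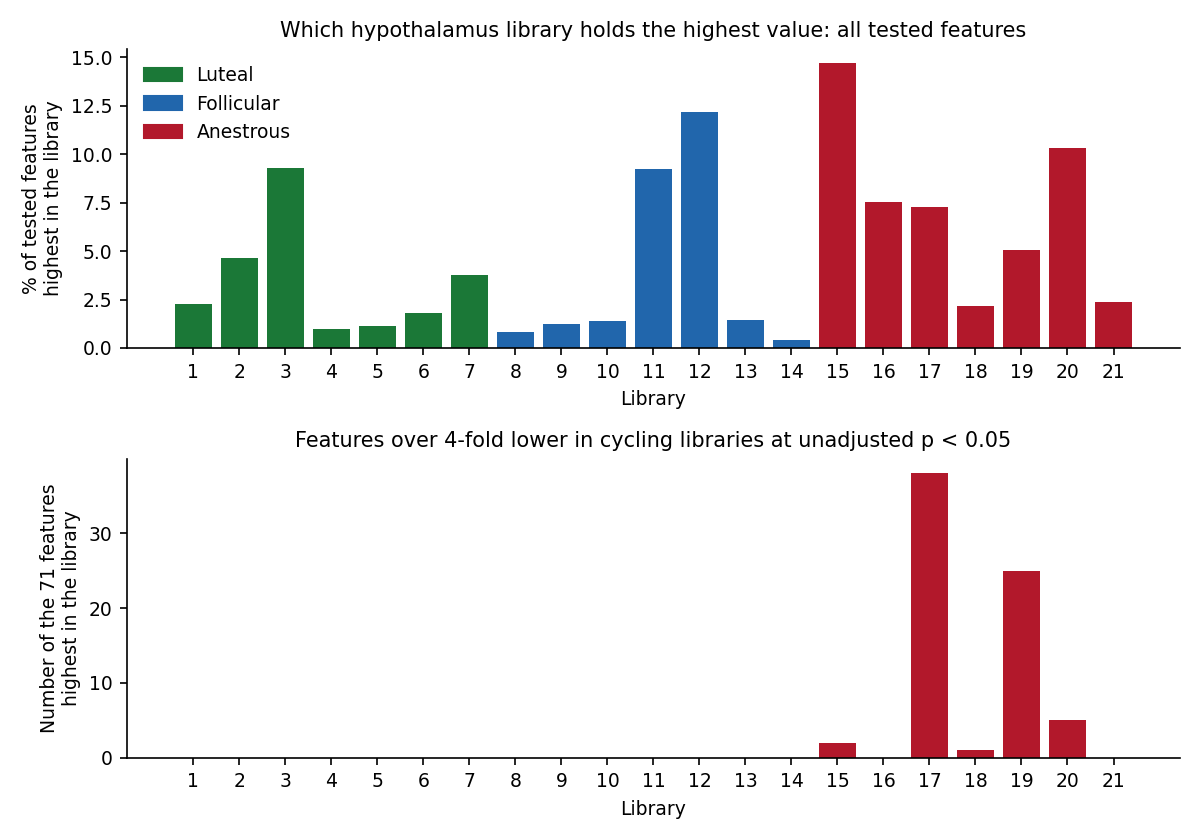
Upper bars give the percent of the 16350 tested features whose highest value lies in each hypothalamus library, and lower bars give the same as a number among the 71 features over 4-fold lower in cycling libraries. Library 15 leads over all features with 14.7%, while libraries 17 and 19 hold 63 of the 71 highest values.

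The tools called features of different size. Of the 64 features called by DESeq2, 43 had their highest value in library 17 or 19 and 23 differed more than 4-fold, with a median size of 1.57 on the log2 scale of the edgeR fit. Of the 266 called by limma-voom, 82 had their highest value in library 17 or 19 and 5 differed more than 4-fold, with a median size of 0.42. Both tools called 24 features, and all 24 had an unadjusted edgeR p under 0.05. Over all tested features, 2013 of 16350 had their highest value in library 17 or 19, and 8076 in any anestrous library. The lists of DESeq2 and limma-voom hold mostly features lower in cycling libraries, so their highest values lie mostly in anestrous libraries by selection. That was so for 60 of the 64 and 207 of the 266. The share over all features is therefore not a like background for libraries 17 and 19.

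Leaving out single libraries showed how far the season contrast rested on each of them. Without library 15, 373 of 16419 features were called by edgeR (2.27%), with 145 higher (0.883%) and 228 lower (1.39%) in cycling libraries and a lowest adjusted p of 0.0067. The number at an unadjusted p under 0.05 was then 3610 (22% of those tested), 1710 higher (10.4%) and 1900 lower (11.6%). Without library 21 there were 14 calls, and without any other single library there were 0. The number at an unadjusted p under 0.05 was lowest, at 1053, without anestrous library 16. Once library 15 was out, the calls still moved with single libraries: they ran from 41 without library 16 and 49 without library 17 to 674 without library 20 and 1142 without luteal library 3.

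**Figure D3:**
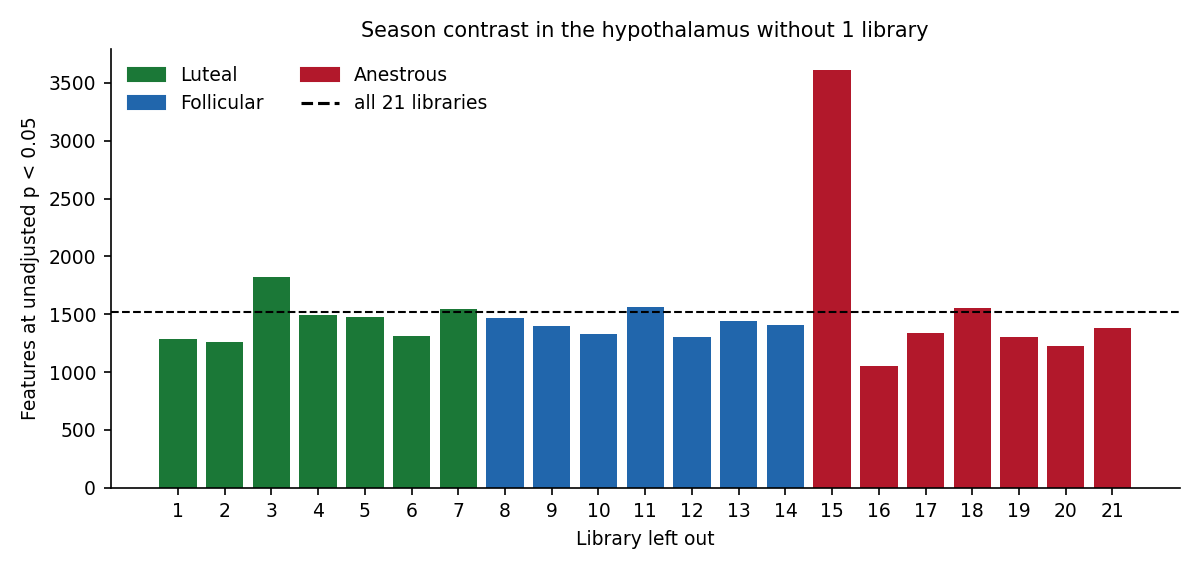
Number of features at an unadjusted p under 0.05 in the season contrast (vertical axis) when each of the 21 hypothalamus libraries is left out (horizontal axis), with the count from all 21 libraries, 1516, as a dashed line. Leaving out library 15 gives 3610, and leaving out any other library gives between 1053 and 1819.

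Across these fits, 461 of the 1516 features (30.4%) kept an unadjusted p under 0.05 and their direction whichever library was left out. Of these, 214 were higher in cycling libraries with a median log2 fold change of 0.47, and 247 were lower with a median of -0.79. The lower ones included 29 of more than 4-fold and the higher ones 7, with the same limit on comparing directions at a 4-fold cut. Since all the fits share most of their libraries, this is a description of stability within these 21 libraries.

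The features with the lowest p without library 15 were those at which that library lay on the cycling side. ENSOARG00000003687, higher in cycling libraries, ran from 3.13 to 6.85 CPM in luteal libraries (median 4.55), from 4.96 to 9.55 in follicular libraries (median 6.98) and from 1.699 to 2.61 in the 6 anestrous libraries other than library 15. Library 15 stood at 8.75, above 13 of the 14 cycling libraries. The log2 fold change was 1.38 ± 0.193 without library 15, a 2.61-fold difference with an edgeR adjusted p of 0.0067, and 0.85 ± 0.277 with it (edgeR adjusted p = 0.350). ENSOARG00000009259 ran from 23.03 to 31.5 CPM in luteal, from 28.4 to 38.8 in follicular and from 8.28 to 22.02 in the other 6 anestrous libraries, while library 15 stood at 59.1, above every cycling library. Its log2 fold change was 0.95 ± 0.149 without library 15 (edgeR adjusted p = 0.0109) and 0.44 ± 0.253 with it (edgeR adjusted p = 0.588).

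The lower features had the mirror pattern. ENSOARG00000000741 ran from 24.9 to 36.5 CPM in luteal, from 19.2 to 29.9 in follicular and from 38.2 to 65.9 in the other 6 anestrous libraries, and library 15 stood at 13.1, below every cycling library. Its log2 fold change was -0.78 ± 0.113 without library 15 (edgeR adjusted p = 0.0067) and -0.64 ± 0.186 with it (edgeR adjusted p = 0.278). ENSOARG00000013956 ran from 35.8 to 57.7 CPM in luteal and from 27.5 to 43.1 in follicular libraries. In anestrus, library 18 was at 34.7, libraries 16, 17, 19, 20 and 21 between 73.7 and 149, and library 15 at 21.6, below every cycling library. Its log2 fold change was -1.31 ± 0.193 without library 15 (edgeR adjusted p = 0.0067) and -1.16 ± 0.245 with it (edgeR adjusted p = 0.130). Without library 15 the cycling and anestrous libraries did not overlap for 21 of 16419 features (0.128%), 10 higher (0.0609%) and 11 lower (0.067%) in cycling libraries. Fewer anestrous libraries make this easier to meet, and it was not counted with any other library left out. All 4 features kept an adjusted p under 0.05 whichever further library was left out, with a highest edgeR adjusted p of 0.0245. They were picked by the fit without library 15, and the further fits share most of its libraries, so this is a description.

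**Figure D4:**
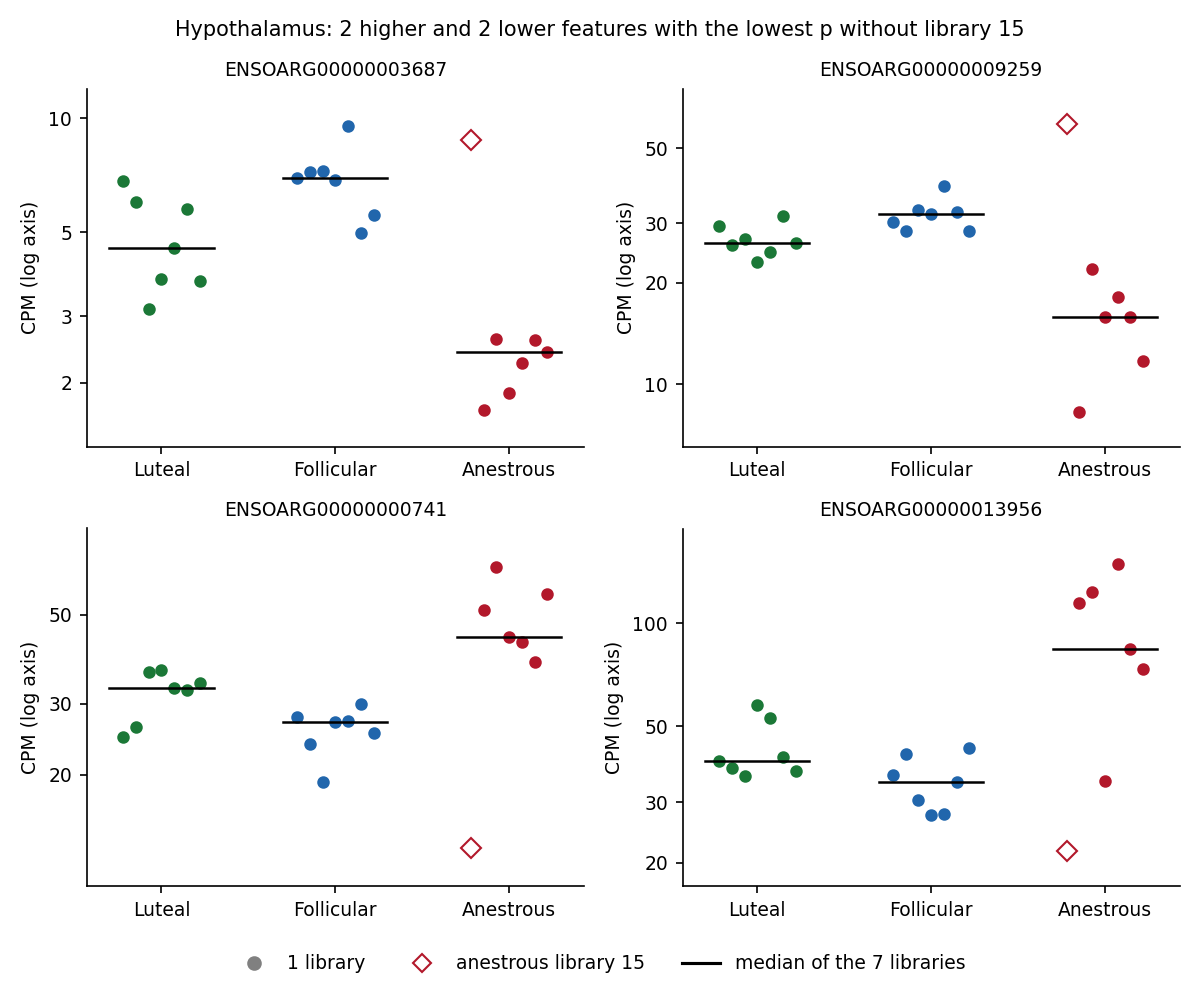
Levels of the 2 higher and the 2 lower features with the lowest p when library 15 is left out, in CPM on log axes, for the 21 hypothalamus libraries. Points are libraries, the open diamond is anestrous library 15 and lines are medians of all 7 libraries of a group. Library 15, at 8.75, 59.1, 13.1 and 21.6 CPM, lies beyond the whole cycling range on the side away from the other anestrous libraries in 3 panels, and above 13 of 14 cycling libraries for ENSOARG00000003687.

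The same was seen when each library was placed by features chosen without it. For each library the season contrast was fitted on the other 20, the 500 features with the lowest p were taken, and the percent at which the library left out lay nearer to the mean of its own season was counted. These percentages are a description, since the 500 features share libraries and vary together. The cycling mean also rests on more libraries than the anestrous mean. Without any season difference a library of either season would therefore tend to lie nearer the cycling mean. The 50% line is a guide and not the level to be met without a difference. The follicular libraries lay nearer their own season at 61.2% to 83.6% of features, with a median of 77.2%. The luteal libraries ranged from 43.6% to 82.6%, with libraries 3 and 5 under 50%. The anestrous libraries other than library 15 ranged from 35% to 70.8%, and libraries 18, 20 and 21 were nearer to the cycling mean at most features. Library 15 lay nearer its own season at 24 of 500 features (4.8%). Its median position, with 0 at the anestrous and 1 at the cycling mean, was 1.86, past the cycling mean. For the 373 features called without it, the share was 4.29%. For the 14 features called without library 21, the share in library 21 was 7.14%. No feature was called with all 21 libraries, so the selection of these features favours a low share in the library left out.

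With library 15 also left out, a choice made after these data were seen, the follicular libraries ranged from 73% to 96% and the anestrous ones from 31.2% in library 20 to 86.4% in library 16. Luteal library 3 was at 26.2% and library 7 stood at 46.4%. Placement by season was thus uneven within both cycling and anestrous libraries. Only the follicular group was above 50% throughout in both versions, and by this design cycling libraries pass 50% more readily than anestrous ones.

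**Figure D5:**
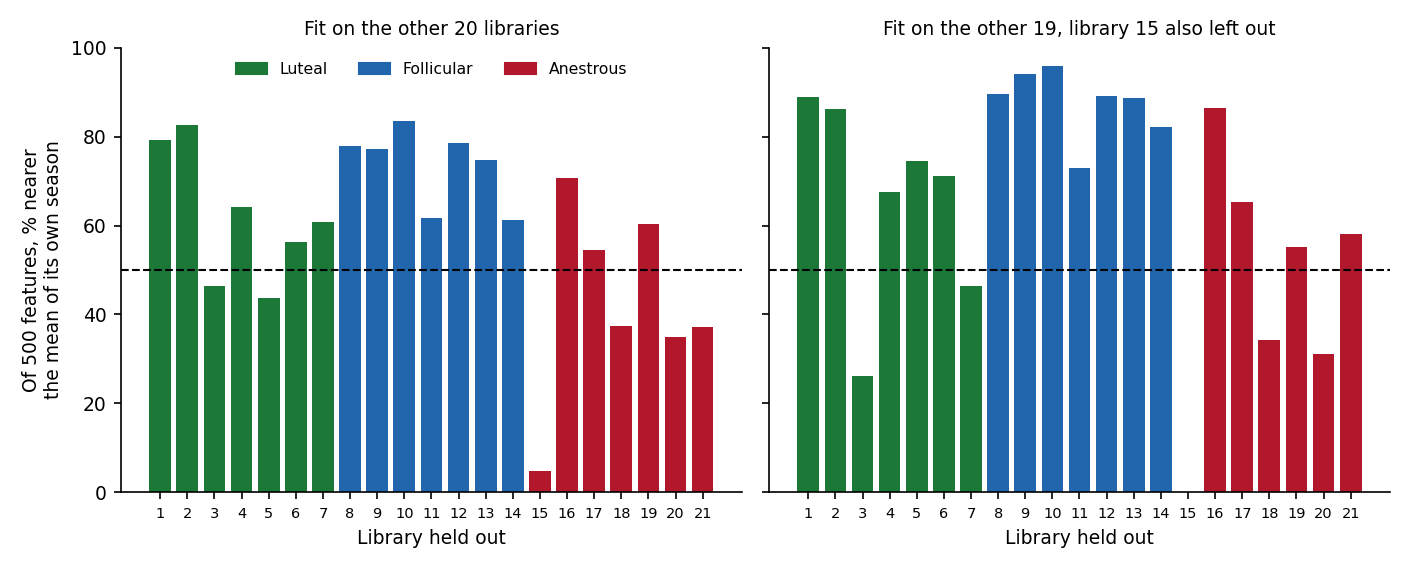
Percent of 500 features at which a hypothalamus library lies nearer to the mean of its own season than to that of the other, with the features chosen by a fit without that library. In the left panel the other 20 libraries were fitted, and in the right panel library 15 was left out as well. The dashed line marks 50% as a guide, which is not the level without a season difference. Library 15 is at 4.8%, while all 7 follicular libraries are at 61.2% or above.

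Measured over all tested features at once, season took 5.96% of the variance of log2 CPM between the 21 libraries, and the mean over all 116280 assignments of 7 anestrous labels was 5%. The exact permutation test gave a one-sided p of 0.194. Without library 15 the share was 8.23% and the exact permutation p was 0.0353 over 38760 assignments. Leaving out that library was a choice made after these data were seen, so this p is a description. Leaving out any other single library gave exact permutation p-values from 0.129 (library 3) to 0.432 (library 16). The first 3 principal components of the hypothalamus libraries held 18.02%, 14.4% and 10.4% of the variance. Components are chosen to hold the most variance, so the share of season is not compared with theirs.

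The anestrous libraries were on average farther from the mean of the others of their phase. The distance, as the root mean square over features of log2 CPM, was 0.987 ± 0.134 (SD, n = 7) in anestrous and 0.864 ± 0.162 (SD, n = 14) in cycling libraries. The difference of 0.123 had a two-sided exact permutation p of 0.100, and 0.194 after adjustment over the 2 whole-contrast tests. The largest distance was that of library 15, 1.19, followed by follicular library 12 at 1.146 and anestrous library 20 at 1.10. Without library 12, 18 or 21 the difference was 0.145, 0.164 or 0.168, with exact permutation p-values of 0.0418, 0.0431 and 0.0366, each unadjusted. Without library 15 it was 0.0942, the lowest of the 21 values, with an exact permutation p of 0.223.

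Few features had a low p between the cycle phases, both among those with a low p by season and over all tested features. Of the 1516 features at an unadjusted p under 0.05 by season, 34 (2.24%) also had an unadjusted p under 0.05 between luteal and follicular libraries, against 1.14% of all features tested. The follicular mean lay farther from the anestrous mean than the luteal mean for 77.9% of the 562 higher and 67.4% of the 954 lower features, against 62.2% of all tested features. The median log2 differences from anestrus were 0.36 in luteal and 0.50 in follicular libraries for the higher features, and -0.61 and -0.70 for the lower ones. Both phases are set against the same anestrous libraries here.

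The same contrast in the pars tuberalis gave 0 calls among 16301 features (0%) and 648 at an unadjusted p under 0.05 (3.98%), with 348 higher (2.13%) and 300 lower (1.84%) in cycling libraries. DESeq2 called 2 features and limma-voom 0. Of the features higher in cycling hypothalamus at an unadjusted p under 0.05, 545 were tested in the pars tuberalis, and 381 of them (69.9%) had the same direction there. Of the lower ones, 459 of 909 (50.5%) did, and over all 15567 features tested in both tissues the share was 55.4%. Without library 15 the shares of the higher and the lower features were closer, at 63.7% (1062 of 1667) and 58.5% (1088 of 1861). An unadjusted p under 0.05 in the pars tuberalis was found for 6.40% of the features that had one in the hypothalamus, against 3.98% of all. Without library 15 this share was 3.97% (140 of 3528), so the excess over all features was not there without it. Across those 15567 features the Spearman correlation of the log2 differences was 0.114, given as a description because features are not independent replicates.

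No feature passed the test of whether the season difference itself differed between hypothalamus and pars tuberalis. Of 17296 features 0 were called by edgeR (0%), with a lowest adjusted p of 0.101, and 1001 (5.79%) had an unadjusted p under 0.05. DESeq2 called 37, 3 with a greater and 34 with a smaller cycling-minus-anestrous difference in the hypothalamus, and limma-voom called 0. Leaving out library 15 gave 33 edgeR calls, and leaving out any other library gave 0 to 5. The lowest p in the lower direction belonged again to ENSOARG00000006630, with a difference of -4.42 ± 0.892 on the log2 scale (edgeR adjusted p = 0.101) and of -0.43 without library 19. In the higher direction it belonged to ENSOARG00000013216, with a difference of 2.89 ± 0.676 (edgeR adjusted p = 0.186). Without library 15 these differences were -4.64 ± 0.848 and 3.36 ± 0.661, each with an edgeR adjusted p of 0.0231. In the hypothalamus that feature ran from 2.503 to 11.03 CPM in luteal, 4.73 to 14.8 in follicular and 1.86 to 14.8 in anestrous libraries, so the groups overlapped. In the pars tuberalis it held at most 11 counts in a luteal, 5 in a follicular and 35 in an anestrous library, and 5 of the 7 follicular libraries had 0 counts.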

How the data were processed

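The authors deposited raw counts per Ensembl sheep gene ID, with 27054 IDs and 42 libraries. The table had 0 columns without a sample, and 3463 IDs had 0 counts everywhere. Per the submitters' processing notes the tools were HISAT2 2.1.0, StringTie 1.3.5, SAMtools 1.7, Trimmomatic 0.38, FastQC 0.11.5, R 3.5.1 and DESeq2, with no role or order given. Build, annotation, strand and multiple mapping: not given in the sources used here. Overlapping or near-identical genes are therefore uncertain.

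The season contrast was fitted in edgeR 4.0.16 (R 4.3.3) with TMM scaling, filterByExpr at a minimum count of 10, phase as a term of 3 levels, robust quasi-likelihood F tests, two-sided, and Benjamini-Hochberg adjustment over all tested features at 0.05. Intervals are at 95%, and log2 CPM use a pseudocount of 0.5. Alternatives were DESeq2 1.42.0, limma-voom (limma 3.58.1), sva 3.50.0, RLE factors, other filters, a covariate for the weight of the 10 largest features, and leaving out each library. Scripts were tested on simulated data. Features named were the 2 higher and 2 lower with the lowest p with and without library 15, and 1 of each for the difference between tissues, with at least 10 counts in 7 libraries. The planned gene lists matched no ID and were not tested. Members and lists were chosen with earlier results of these data known.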

Additional observations from a re-analysis of the deposited data

Results flagged for a closer look

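In 75 groups of 7 libraries the highest and lowest values were compared with the rest of the group, and 11 stood apart by the 95% criterion of Dixon. Chance meets it in about 1 of 20 independent groups of normally distributed values. Many of the 75 groups are levels of features picked by their p in these data, and the groups share libraries. That rate therefore does not apply to the 11. Library 15 stood apart among the anestrous hypothalamus libraries with 33586399 counts, with 8.75 CPM for ENSOARG00000003687 and with 59.1 CPM for ENSOARG00000009259. Both features were picked by the fit without that library. Anestrous library 19 stood apart at 1954 CPM for ENSOARG00000006630. Follicular library 12 stood apart at 38.8 CPM for ENSOARG00000009259, against 32.8 CPM in the next library.

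The summed level of the features far higher in the pars tuberalis stood apart in follicular library 11, at 841 CPM, and in anestrous library 17, at 967 CPM. In library 11 the 10 largest features also took 38.5% of the counts, against 29.5% in the next follicular library.

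In the pars tuberalis, luteal library 24 stood apart at 50.02 CPM for ENSOARG00000016596, and follicular library 30 at 34.8 CPM for ENSOARG00000006630 and 96.0 CPM for ENSOARG00000013956. Causes of these values were not tested.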

How the results depend on the processing

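No named feature changed direction under any alternative run. The balance of directions at an unadjusted p under 0.05 did: it turned from 562 higher and 954 lower to 1158 and 975 with surrogate variables in the hypothalamus, and from 348 and 300 to 589 and 763 without a filter in the pars tuberalis. The median log2 fold change over all hypothalamus features turned from -0.03 to 0.03 with surrogate variables and to 0.01 in limma-voom. The count of season calls in the hypothalamus, 0 in edgeR, was 64 in DESeq2, 266 in limma-voom, 1 without a filter on low counts and 49 with 5 surrogate variables, and ran from 0 to 373 when single libraries were left out. It stayed at 0 with RLE factors, the stricter filter, 2 levels in place of 3 phases, a covariate for the weight of the 10 largest features, and the 20 largest features left out. Features at an unadjusted p under 0.05 numbered 3385 in limma-voom and 2432 without a filter, and 1053 to 3610 with single libraries left out.

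Without library 15 the calls numbered 1459 in DESeq2, 1088 in limma-voom and 213 without a filter, and 41 to 1142 with a further library left out. In the pars tuberalis DESeq2 called 2, and features at an unadjusted p under 0.05 numbered 1054 in limma-voom and 1352 without a filter. For the difference between tissues DESeq2 called 37, limma-voom found 1744 at an unadjusted p under 0.05, and leaving out single libraries gave 0 to 33 calls and 846 to 2260 at an unadjusted p under 0.05. The share of variance ran from 5.24% (without library 16, where the mean over assignments was 5.26%) to 8.23% and the difference in spread from 0.0942 to 0.168 with single libraries left out. Apart from the replaced counts in DESeq2, the cause of these shifts was not tested.

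No paired analysis was possible because the libraries are numbered 1 to 42 with no number shared between groups, and the labels tie no hypothalamus library to a pars tuberalis library. With 7 libraries a group, 43.9% of the 5450 least abundant features had an interval within 2-fold, so low features limit what can be said.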

Other observations

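Some IDs were counted in 1 season only. With at least 10 counts in 1 or more libraries as the criterion, 31 IDs reached it in anestrous hypothalamus with 0 counts in all 14 cycling libraries. Of these, 24 had any count in only 1 library and 7 in 2 libraries. The reverse held for 105 IDs. Among them, 49 had any count, however low, in 3 or more cycling libraries, and at most in 11 libraries. The groups are unequal, with 14 cycling and 7 anestrous libraries, so the numbers are not compared.

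Of the 158 features more than 32-fold higher in hypothalamus than in pars tuberalis, 13 (8.23%) were higher and 8 (5.06%) lower in cycling libraries at an unadjusted p under 0.05, against 3.44% and 5.83% of all tested features. Of the 43 features far higher in pars tuberalis that passed the count filter in the hypothalamus, 0 were higher and 2 (4.65%) were lower.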
